A study of Mus musculus with 2 samples.

Results

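Genes that execute or restrain apoptosis were measured in long-term hematopoietic stem cells (LT-HSCs) of old mice in which p38α, the kinase encoded by *Mapk14*, had or had not been deleted. The list held 33 genes taken by name: Bcl2 family members, caspases, mitochondrial death factors, inhibitor of apoptosis proteins (IAPs) and parts of the death receptor complex. Probes of that name existed for 32 of them, 43 probes in all, and the scanner software scored 31 genes as well above background on 1 array or both, out of 22555 named genes on the design and 17194 above background in the same way. *Bcl2a1b* had no probe of its own name. *Hrk*, which encodes a BH3-only protein best known from neurons, stayed at background on both arrays and has no fold.

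RNA of LT-HSCs from the bone marrow of 2-year-old C57BL/6J mice was labelled with Cy3 and hybridized to Agilent arrays, 1 array for each genotype. The p38α+/+ sample, labelled wild-type, came per the methods from Cre-negative mice with floxed p38α alleles that had also received tamoxifen (TAM). The p38αΔ/Δ sample, labelled p38KO, came from floxed mice that carried CAG-CreERT2, a TAM-dependent Cre driven by a promoter active in most tissues, so the deletion was not restricted to blood cells. TAM was given at 50 to 60 weeks of age, and the cells were taken 1 year later. They were sorted as CD150+CD48-Flt3-CD34- LSK cells, where LSK stands for lineage-, Sca-1+ and c-Kit+, and the methods add CD41-. The number of mice behind an array is not given in the sources used here.

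Values are log2 signals relative to each array's 75th percentile, at the brightest probe of a gene, and differences are p38αΔ/Δ minus p38α+/+ on the log2 scale. The error given with a difference is the scanner software's own estimate for the spots, combined over both arrays. It does not cover the spread between mice, and with 1 array per genotype no difference here has a replicate check or a p-value. Gene lists are therefore described by counts and medians beside those of all genes, and "fell" and "rose" are used only of values at least 2-fold apart. In pooled cells, fewer cells of a type and less RNA per cell cannot be told apart.

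*Mapk14* itself did not separate the arrays. Its brighter probe read 2.34 on the p38α+/+ array and 2.31 on the other (difference −0.04), and its second probe read 2.08 and 2.03 (−0.05). The deleted exons are not named in the sources used here, so the probes may lie outside them, and the second sample is called the array labelled p38αΔ/Δ throughout. LT-HSC markers were present on both arrays: all 15 genes of an HSC identity list were above background, among them *Procr* (4.38 and 3.17) and *Kit* (5.66 and 5.57). Of these, 13 were lower on the array labelled p38αΔ/Δ, with a median difference of −0.48. Markers of other blood cells varied by list, and summed signals are given in units of the 75th percentile, first for p38α+/+. Of 16 neutrophil genes *Mmp9* and *Cxcr2* had no value, for want of a named probe or of signal above background. *Mmp8* was at background on the p38α+/+ array only and at least 2.74-fold higher on the other. Of the 13 above background on both arrays 9 were higher and 4, among them *Elane*, were lower (median 1.02). *Csf3r* made up most of the summed signal of 217 and 307, and without it the sums were 9.63 and 26.9. All 7 B cell genes above background on both arrays were higher (median 0.69), while *Ms4a1*, *Ebf1* and *Vpreb3* were at background on the p38α+/+ array. Their summed signal was 3.90 and 19.1, but 2.77 and 3.87 without *Jchain*. T and NK cell genes went both ways, 5 of 9 higher and 4 lower with 5 past 2-fold, from *Zap70* (−4.43) to *Icos* (3.54), and summed to 18.2 and 21.5. Erythroid genes (6 of 8 higher, median 0.39) summed to 21.5 and 30.4, and megakaryocyte genes (5 of 10 higher, median 0.19) to 104.6 and 94.7. Of 7 genes for markers that the sort selects against, all were above background on both arrays and 5 were higher (median 0.42). These were *Itgam* (7.50 and 7.92), *Cd4* (1.86 and 2.60), *Cd48* (−2.06 and −0.69), *Flt3* (−2.31 and −1.95) and *Cd8a* (−3.93 and −3.37). *Cd34* (2.81 and 2.67) and *Ptprc* (−0.04 and −0.32) were lower. *Ptprc* encodes all forms of CD45, of which the sort selects only against B220. *Itga2b*, which encodes CD41, is counted with the megakaryocyte genes instead and was also lower (0.61 and 0.24). The part of other blood cells in the values below was not tested.

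Apoptosis runs along a mitochondrial and a death receptor route. In the first, BH3-only proteins sense damage or loss of growth signals and either bind the anti-apoptotic Bcl2 proteins or act on the effectors Bax and Bak, which open the outer mitochondrial membrane. Cytochrome c then joins Apaf1 to activate caspase-9, while other released proteins relieve the IAPs of their hold on caspases. In the second, ligand-bound receptors such as Fas recruit Fadd and caspase-8, a step that c-FLIP restrains. HSCs are known to depend on Mcl1 for survival.

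A few of the coding probes that the results turn on are printed here as deposited, 5′ to 3′. Each is 60 bases of coding sequence, and each holds at least 1 reading frame without a stop codon. The *Bcl2l11* and *Endog* probes gave the largest rise and fall among the brightest probes, and the other 3 are the dimmer probes that differed from another probe of the same gene. Capitals mark bases 6 to 11 of the *Bcl2l11* probe, the codons of the glycine and aspartate that are conserved in BH3 domains.
Bcl2l11: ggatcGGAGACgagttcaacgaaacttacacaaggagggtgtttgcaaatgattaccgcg
Endog: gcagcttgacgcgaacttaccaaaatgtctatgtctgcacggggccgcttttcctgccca
Diablo: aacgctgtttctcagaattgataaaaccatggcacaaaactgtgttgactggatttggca
Bcl2l1: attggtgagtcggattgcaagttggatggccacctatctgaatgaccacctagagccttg
Cflar: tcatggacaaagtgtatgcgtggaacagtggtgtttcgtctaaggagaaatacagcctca

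In the coordinates of mouse build mm9, which the design uses, the *Bcl2l11* probe lies on the plus strand at chr2:127972893-127983988, a span of 11096 bases that therefore joins sequence from different exons. The *Endog* probe is at chr2:30028411-30028470 on the plus strand. The *Diablo* probe is at chr5:123973293-123973352 and the *Bcl2l1* probe at chr2:152655185-152655244, both on the minus strand. The *Cflar* probe is at chr1:58810660-58810719 on the plus strand. The *Bcl2l1* probe falls in the part of the coding sequence that the short, pro-apoptotic form Bcl-xS lacks.

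The apoptosis genes had a median difference slightly below that of all genes, with members on either side of 0. Their median difference was −0.25, against −0.03 over all 17194 genes, and 20 of 31 were lower and 11 higher, where 52.4% of all genes were lower and 47.6% higher. *Bik* and *Bmf* entered only through the p38α+/+ array and so had to be lower. Of the 29 members above background on both arrays 18 were lower and 11 higher, with a median of −0.18, against −0.04 and 8322 lower of 15646 genes selected in the same way. Few passed 2-fold: 3 of 31 fell at least that far (*Bcl2a1d*, *Endog* and *Fadd*), beside 6.71% of all genes, and 1 rose (*Bcl2l11*), beside 4.11%. By the smaller yardstick of 2 scanner errors, 9 of the 29 members above background on both arrays were lower, beside 20.5% of all such genes, and 3 were higher, beside 16.9%. The 9 were *Bcl2a1d*, *Bax*, *Bad*, *Casp6*, *Endog*, *Aifm1*, *Xiap*, *Tnfrsf10b* and *Fadd*, and the 3 were *Bcl2l11*, *Cycs* and *Cflar*. Normexp background correction fits a model of the background and here adds an offset of 50 to the signals. With normexp the median was −0.073 against 0.051 over all genes, and no member reached 2-fold in either direction. Of all genes 125 were lower and 49 higher by that much, beside 1154 and 706 in the main setting. How far the offset alone lowers these counts or turns the signs of dim genes was not tested.

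**Figure D1:**
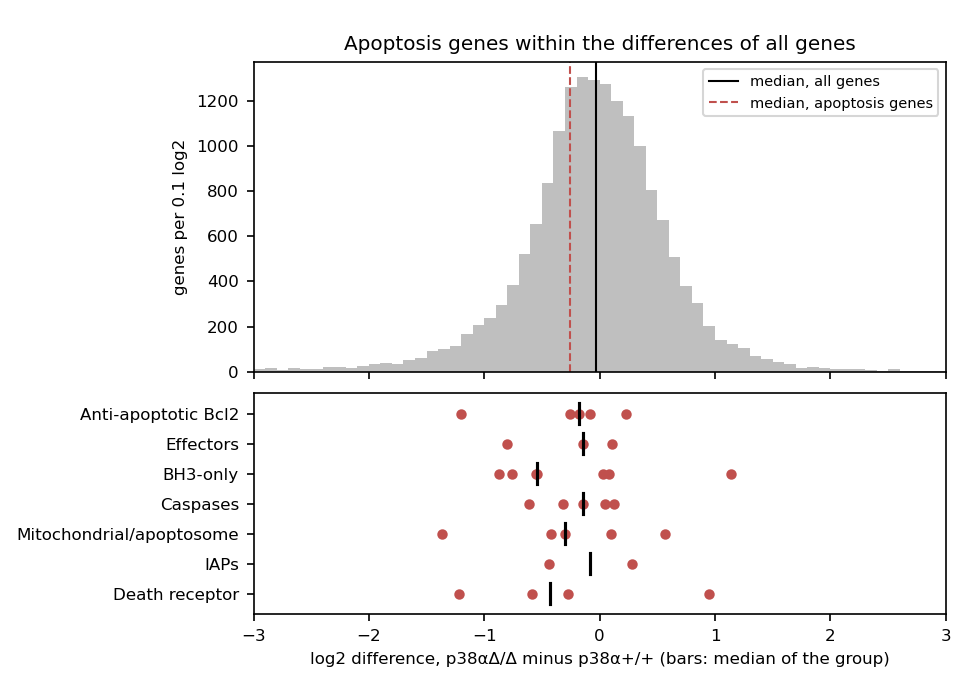
Log2 difference between the arrays (p38αΔ/Δ minus p38α+/+) for all 17194 genes above background on at least 1 array (upper panel, genes per bin, axis cut at 3 on either side) and for the 31 measured apoptosis genes by role (lower panel, points; short bars are group medians; *Bik* and *Bmf* are drawn at their bounds). The median of the apoptosis genes (−0.25, dashed) lies left of that of all genes (−0.03, solid), within the bulk of the distribution.

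The anti-apoptotic Bcl2 proteins hold the effectors in check. Of the 5 measured, 4 were lower on the array labelled p38αΔ/Δ and 1 was higher, with a median of −0.18. *Mcl1* read 5.19 on the p38α+/+ array and 5.11 on the other, a difference of −0.08 ± 0.20. Its second probe read 3.69 and 3.83 (0.14), so its probes pointed in opposite directions by amounts within the scanner error. *Bcl2*, the founding member of the family, read 4.70 and 4.93 (0.23 ± 0.20). *Bcl2l2*, which encodes Bcl-w, read 0.51 and 0.25 (−0.25 ± 0.20), and its dimmer probe, 168 bases away, read −0.22 and −0.81 (−0.59). Both *Bcl2l2* probes were thus lower on the array labelled p38αΔ/Δ.

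*Bcl2l1*, which encodes Bcl-xL, read 2.62 and 2.44 at its brighter probe (−0.18 ± 0.20). At the coding probe printed above, 48781 bases upstream in the genome, it read −0.26 and −1.79, 2.89-fold lower (−1.53 ± 0.21). The small difference at 1 probe and the fall at the other are therefore both on record for this gene. *Bcl2a1d* encodes a form of A1, an anti-apoptotic protein of myeloid and lymphoid cells that NF-κB induces. It read −3.27 and −4.47, a 2.30-fold lower signal (−1.20 ± 0.36), near the lowest signals counted as above background (−4.65 and −4.78). With normexp the difference was −0.02. The probe also carries the RefSeq accessions of *Bcl2a1a* and *Bcl2a1b*, so its signal cannot be assigned to 1 of these near-identical genes.

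**Figure D2:**
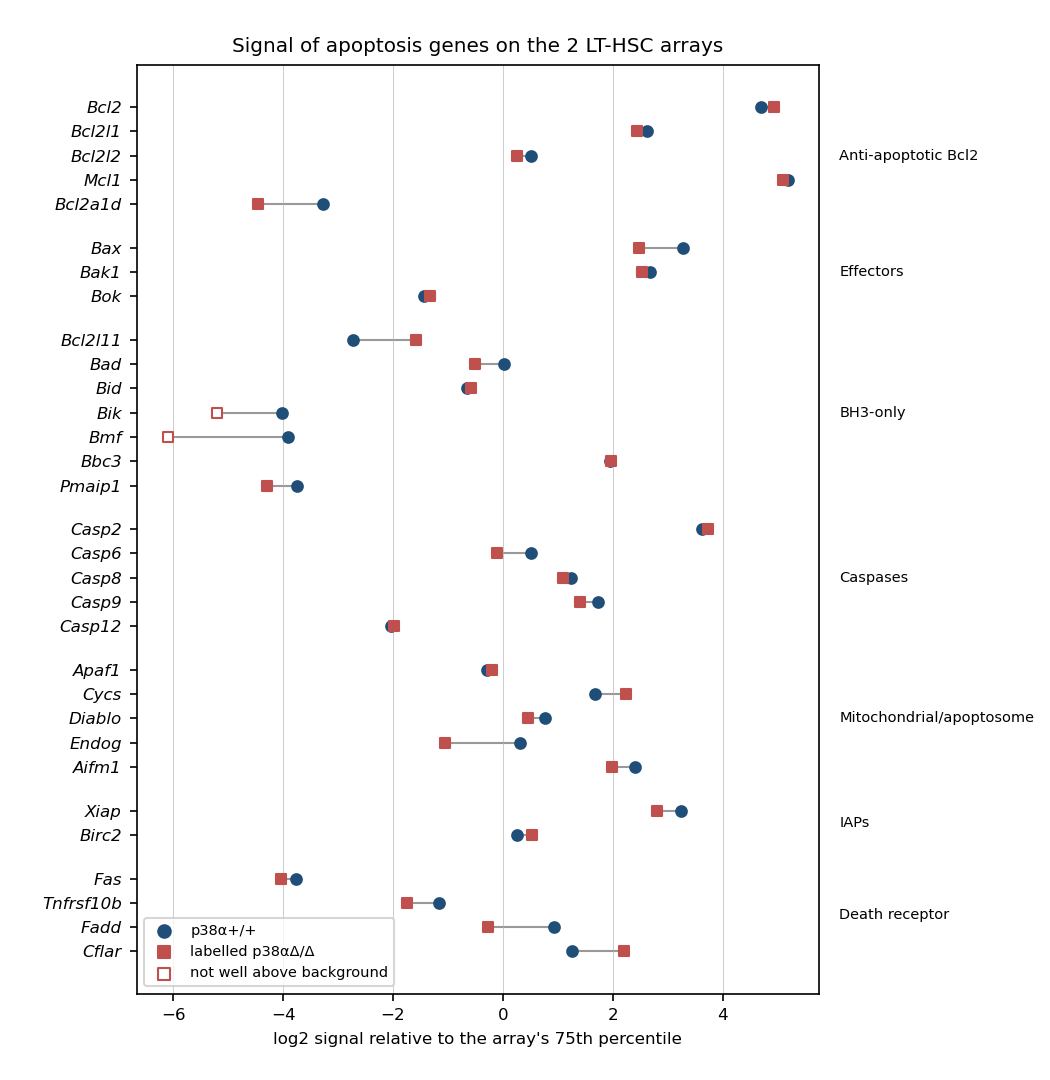
Log2 signal of the 31 measured apoptosis genes relative to the array's 75th percentile, at each gene's brightest probe, for p38α+/+ (circles) and labelled p38αΔ/Δ (squares), with 1 array each and genes grouped by role. Open symbols were not well above background. *Bcl2l11* lies to the right on the array labelled p38αΔ/Δ (−2.72 to −1.58), whereas *Endog* (0.32 to −1.05) and *Fadd* (0.94 to −0.28) lie to the left. Positions of different genes depend on their probes and are not compared.

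The effectors form the pore in the outer mitochondrial membrane. *Bax* read 3.28 and 2.47, a 1.75-fold lower signal (−0.81 ± 0.20), and this value lay between −0.81 and −0.72 under every alternative processing. *Bak1*, which encodes Bak, read 2.68 and 2.54 (−0.14 ± 0.20). *Bok*, which encodes a relative that can act without BH3-only proteins, read −1.43 and −1.32 (0.11 ± 0.21). Of the effectors, *Bax* alone differed by more than 2 scanner errors.

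The BH3-only genes went both ways. *Bcl2l11*, which encodes Bim, the BH3-only protein that limits survival of many blood cells, rose from −2.72 to −1.58, a 2.20-fold higher signal on the array labelled p38αΔ/Δ (1.14 ± 0.23). With normexp the difference was 0.50. A second *Bcl2l11* probe was at background on both arrays. *Bbc3* and *Bid*, which encode Puma, a target of p53, and Bid, the link from the death receptors to mitochondria, hardly differed. *Bbc3* read 1.94 and 1.97 (0.03 ± 0.20), and *Bid* read −0.66 and −0.58 (0.08 ± 0.21).

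The remaining BH3-only genes had lower values on the array labelled p38αΔ/Δ. *Bad*, which encodes a protein that growth factor signals silence by phosphorylation, read 0.03 and −0.51 (−0.54 ± 0.21), but −1.20 and −1.15 (0.05) at its dimmer probe. *Pmaip1*, which encodes the Mcl1-binding protein Noxa, read −3.74 and −4.29 (−0.55 ± 0.40). Dim signals dominate what is left of this group. *Bik* (−4.02) and *Bmf* (−3.91) were above background on the p38α+/+ array only and were at least 1.69-fold and at least 1.83-fold lower on the other, bounds set by the lowest signal counted as above background there. Bik acts at the endoplasmic reticulum and Bmf responds to loss of adhesion. The median of the 7 measured BH3-only genes was −0.54, and it was 0.026 over the 5 that were above background on both arrays and 0.072 with normexp. With normexp *Bik* (0.079), *Bmf* (0.019) and *Pmaip1* (0.10) changed sign.

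**Figure D3:**
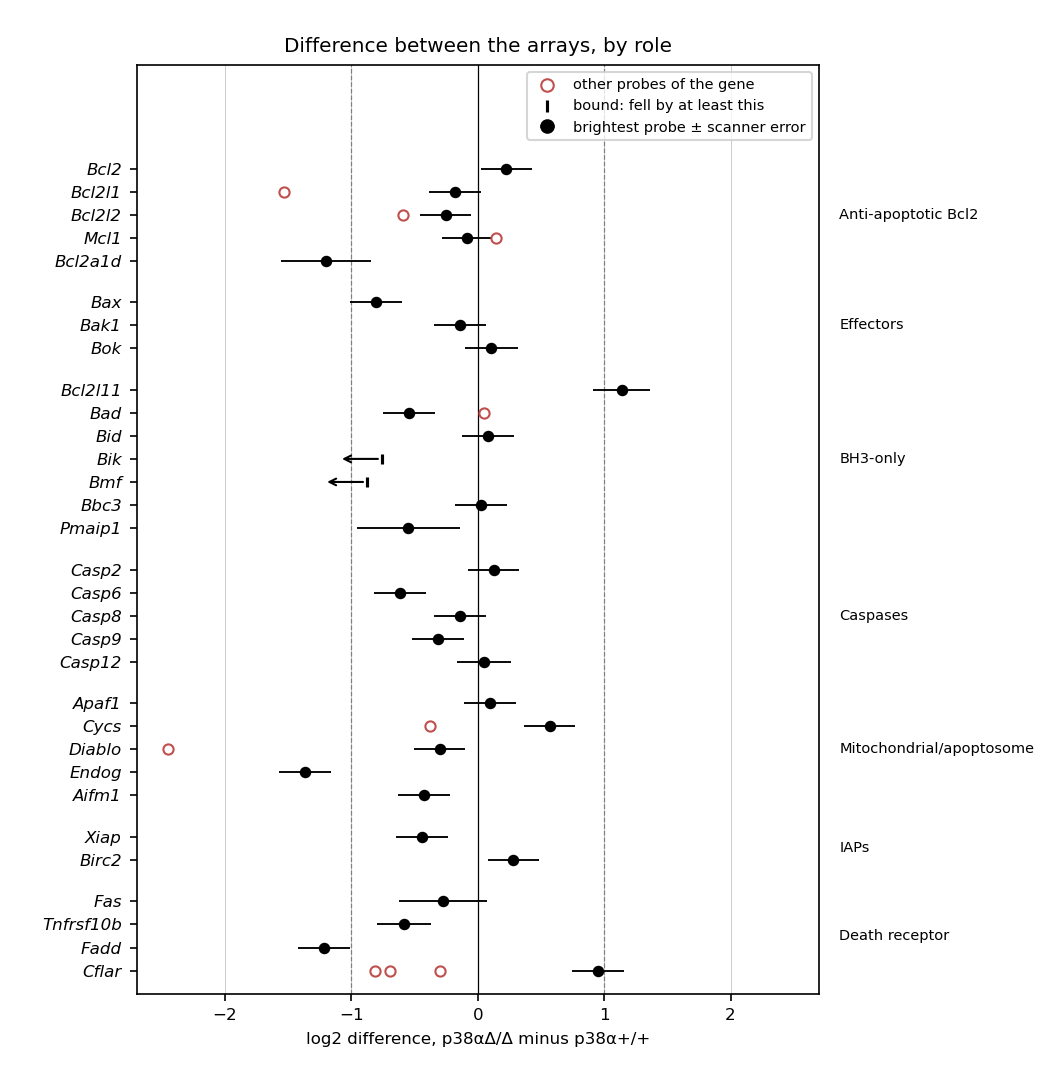
Log2 difference, p38αΔ/Δ minus p38α+/+, for each measured apoptosis gene, grouped by role. Filled points are the brightest probe with the scanner error over both arrays (not the spread between mice), open circles are other probes of the gene, ticks with arrows are bounds and dashed lines mark 2-fold. The probes of *Cflar* lie on both sides of 0 (0.95, −0.81, −0.70 and −0.30), and the second *Diablo* probe (−2.45) lies far from the first (−0.30).

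Caspases are the proteases that carry the signal on. All 5 listed were measured, 3 lower and 2 higher, with a median of −0.14 and none at 2-fold. *Casp6*, an executioner caspase, read 0.51 and −0.10, a 1.53-fold lower signal (−0.61 ± 0.20), the widest difference of the group. *Casp9*, the initiator of the mitochondrial route, read 1.73 and 1.41 (−0.32 ± 0.20). *Casp8*, the initiator at death receptors, read 1.23 and 1.09 (−0.14 ± 0.20). Both initiators were within 2 scanner errors. *Casp2*, an initiator linked to DNA damage and aberrant chromosome numbers, read 3.62 and 3.74 (0.12 ± 0.20). *Casp12*, of the inflammatory caspase branch, read −2.04 and −1.99 (0.05 ± 0.22).

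Among the mitochondrial factors and the apoptosome, 3 of 5 genes were lower and 2 higher, with a median of −0.30. *Endog*, which encodes the mitochondrial nuclease endonuclease G, fell from 0.32 to −1.05, a 2.59-fold lower signal (−1.37 ± 0.21) and the widest difference at a brightest probe above background on both arrays. With normexp it was −0.84. *Aifm1*, which encodes apoptosis-inducing factor, a flavoprotein that also serves respiratory complex assembly, read 2.41 and 1.98 (−0.42 ± 0.20). *Apaf1*, the scaffold of the apoptosome, read −0.29 and −0.19 (0.10 ± 0.21).

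*Cycs* and *Diablo* gave different answers by probe. *Cycs*, which encodes cytochrome c, read 1.67 and 2.24 at its brightest probe (0.57 ± 0.20) and 0.25 and −0.13 at the next (−0.38), and its last probe was at background on both arrays. The pair used lies 570 bases apart. *Diablo*, which encodes Smac, the protein that displaces IAPs from caspases, read 0.77 and 0.46 at its brighter probe (−0.30 ± 0.20). At the coding probe, 11123 bases upstream, it read −1.86 and −4.31, a 5.47-fold lower signal (−2.45 ± 0.31). This was the widest difference at any member probe above background on both arrays. With the mean of both probes *Diablo* was at −1.38, past 2-fold, and the signal on the array labelled p38αΔ/Δ was close to the background limit there.

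The IAP genes diverged. *Xiap*, which encodes a direct inhibitor of caspases, read 3.25 and 2.81, a 1.36-fold lower signal (−0.44 ± 0.20). *Birc2*, which encodes the ubiquitin ligase cIAP1 of the TNF receptor complex, read 0.26 and 0.54 (0.28 ± 0.20). Neither reached 2-fold.

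Of the 4 death receptor genes 3 were lower and 1 was higher (median −0.43, and −0.037 with normexp), and *Fadd* fell. This gene, whose product is the adaptor that joins receptors to caspase-8, read 0.94 and −0.28, 2.32-fold lower (−1.22 ± 0.20), and −0.91 with normexp. The coordinates of the only *Fadd* probe span 40 bases, against 60 for the *Endog* probe, and the reason was not tested. The receptor genes had smaller differences: *Tnfrsf10b*, which encodes the mouse TRAIL receptor, read −1.15 and −1.74 (−0.58 ± 0.21), and *Fas* read −3.76 and −4.04 (−0.28 ± 0.35). *Fas* was near the lowest signals counted as above background, and its sign turned with normexp (0.12).

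*Cflar*, which encodes c-FLIP, the catalytically dead relative of caspase-8, depended on the probe. Its brightest probe read 1.26 and 2.21, a 1.93-fold higher signal on the array labelled p38αΔ/Δ (0.95 ± 0.20). That probe, at chr1:58770546-58770605, is the only 1 of the 43 that names no RefSeq transcript. The other 3 *Cflar* probes all name 1 and were all lower: 1.66 and 0.85 (−0.81 ± 0.20) at chr1:58811116-58811175, −0.69 and −0.99 (−0.30), and −1.81 and −2.51 (−0.70) at the coding probe printed above. With the brightest RefSeq probe in its place the difference of *Cflar* was −0.81, and with the mean of its probes it was −0.21.

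Probe choice thus mattered for several members. Of the 7 with at least 2 probes above background on both arrays, all probes pointed the same way in 3 (*Bcl2l1*, *Bcl2l2* and *Diablo*), and the median range within a gene was 0.95. Over 4537 genes of the same kind the share was 53.4% and the median range was 0.50. The dimmest probe gave the lower difference in 5 of the 7 members and in 54.4% of all genes. The probe nearer the 5′ end was lower in 2 of 6 members with separable positions (*Bcl2l1* and *Diablo*), beside 56.0% of 3972 genes.

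The median of the members lay below that of all genes in each range of signal. With the genes above background on both arrays split by mean level into 4 bins of like size, from dim to bright, the medians of the members were −0.28 (5 genes), −0.23 (6), −0.28 (8) and −0.11 (10). Those of all genes were 0.06, −0.02, −0.07 and −0.09. The gap to all genes was narrowest in the brightest bin. In the dimmest bin *Bcl2l11* and *Casp12* were higher. The others there, *Bcl2a1d*, *Pmaip1* and *Fas*, were near background and read −0.02, 0.10 and 0.12 with normexp.

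**Figure D4:**
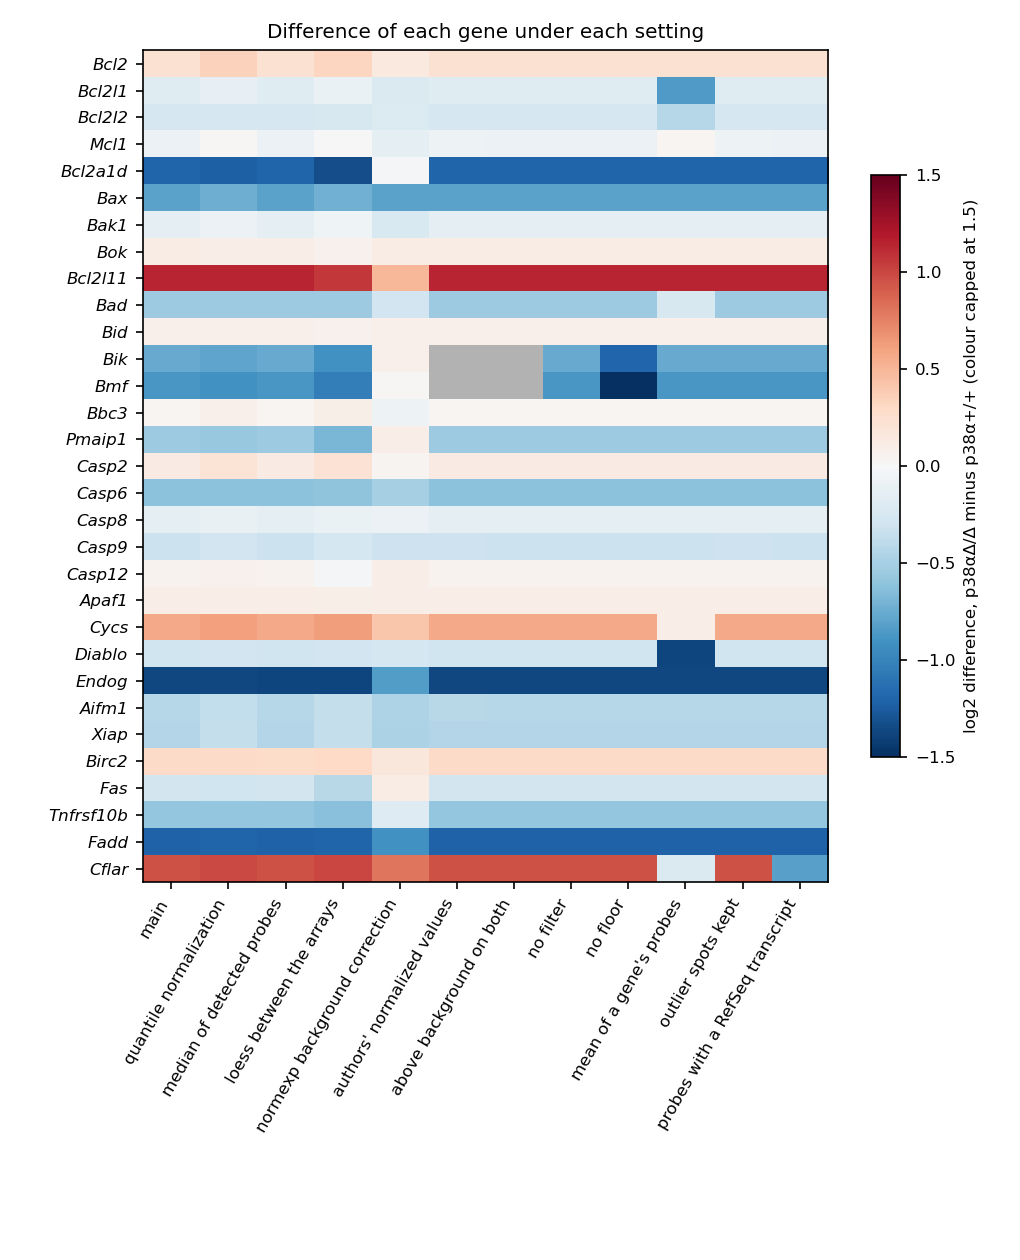
Log2 difference of each measured apoptosis gene (rows, ordered by role) under the main setting and each alternative (columns), blue where lower and red where higher on the array labelled p38αΔ/Δ; grey marks genes that a setting leaves out. *Bax*, *Casp6*, *Endog* and *Fadd* were lower and *Bcl2l11* higher in every column, whereas *Bcl2a1d* approached 0 with normexp and *Cflar* turned with other probes.

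Members grouped by known regulators gave medians close to that of the list. Of the 7 known as p53 targets (*Bax*, *Bbc3*, *Pmaip1*, *Fas*, *Tnfrsf10b*, *Apaf1* and *Bid*), 4 were lower and 3 higher, with a median of −0.28. None passed 2-fold. Of 7 measured NF-κB targets (*Bcl2a1d*, *Bcl2l1*, *Xiap*, *Birc2*, *Cflar*, *Fas* and *Bcl2*), 4 were lower and 3 higher, with a median of −0.18. With normexp these medians turned to 0.072 and 0.12.

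Other genes of the pathway, from a list of 45, were spread in a similar way. All 42 that were measured were above background on both arrays, 24 lower and 18 higher, with a median of −0.23 (−0.083 with normexp). Of all 15646 such genes 8322 were lower, with a median of −0.04. At 2-fold or more, 2 of the 42 were lower and 1 was higher, beside 785 and 498 of all such genes. Past 2-fold, *Tmbim6*, which encodes the endoplasmic reticulum protein Bax inhibitor-1, fell from 3.76 to 2.42 (2.54-fold). *Bcl2l14*, a little-studied Bcl2 relative, fell from −1.73 to −3.79 (4.17-fold). *Gzmb*, which encodes the cytotoxic protease granzyme B of T and NK cells, rose from −3.13 to −1.98 (2.21-fold).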

How the data were processed

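Total RNA of each LT-HSC sample was hybridized to 1 array. The authors deposited scanner intensities extracted with Agilent Feature Extraction 11.5.1.1, background-subtracted and detrended within an array but not normalized between arrays. Their normalized values, deposited on the log2 scale for 35795 probes, equal in each column the log2 intensity minus 1 constant (7.16 and 6.84), and column medians were −0.79 and −0.79. How that constant was set is not given in the sources used here.

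From the deposited intensities, control spots and outlier spots were left out, repeated spots were averaged as log2, and each array's 75th percentile over non-control probes (7.16 and 6.85) was subtracted. The brightest probe stood for a gene. Of 55662 probes, 31778 were named through a RefSeq table of GRCm38.p6, used for names only. A gene needed a signal well above background on 1 array or both, 67.9% and 69.0% of probes being so on the p38α+/+ array and the other, and 0 spots were saturated. Where 1 array was at background, its value was replaced by that array's weakest signal scored above background, which makes the fold a bound. The median standard deviation between spots of 1 probe was 0.09 and 0.10. It depended on the level, at 0.23 on both arrays for values below −3 and 0.06 for values above 1. The number of arrays limits the precision. The members and lists were chosen with earlier results of these data known. All members are named, and of the other pathway genes those past 2-fold. Some genes of the pathway list are not reported here. The analysis of probe positions, the RefSeq probe setting, the alternatives for the p53 and NF-κB groups and the marker sums without the brightest gene were chosen after values were seen. Python 3.11.15, numpy 2.4.6, pandas 2.3.3, R 4.3.3 and limma 3.58.1 were used.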

Additional observations from a re-analysis of the deposited data

How the results depend on the processing

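Scaling was varied by quantile normalization, a loess with span 0.3, or the median of detected probes as centre. Background was varied by normexp (offset 50), and the authors' normalized values were also used. Genes had to be above background on both arrays or passed unfiltered, bounds were dropped, probes of a gene were averaged, outlier spots were retained and, chosen after seeing the data, only RefSeq probes were used. A value counted as moved when it shifted by more than 0.13, the spot-to-spot standard deviation of such a difference over all signal levels. Dim signals vary more than this. Of 337 values of single members, 311 did not move by this measure, 20 moved and 6 reversed. Many of the 311 could hardly move. The filters, the authors' values, the median of detected probes and the outlier spots left single members nearly as they were. Dropping bounds or using RefSeq probes could change few genes. With normexp 19 of 31 did not move, 8 moved and 4 reversed. After the loess 26 did not move and 5 moved, and with quantile normalization all 31 stayed. *Mcl1*, *Bbc3* and *Casp12* changed sign under some settings without moving. No paired analysis was possible because each group has 1 array, and for the same reason no array could be left out.

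Normexp moved most: the median of the members was −0.073 against −0.25, the counts past 2-fold were 0 lower and 0 higher against 3 and 1, the death receptor genes were at −0.037 and the other pathway genes at −0.083. Medians that reversed with normexp were those of the BH3-only genes (0.072), the p53 targets (0.072) and the NF-κB targets (0.12), as did *Bik* (0.079), *Bmf* (0.019), *Pmaip1* (0.10) and *Fas* (0.12). The BH3-only median was also 0.030 with the authors' values and 0.026 with the filter on both arrays, which leave out *Bik* and *Bmf* by construction, −0.34 without a filter, which adds *Hrk*, and −0.25 with the mean of probes. Without bounds 5 members were past 2-fold lower, *Bik* and *Bmf* being added, and *Bmf* alone was added by the loess and *Diablo* alone by the mean of probes. After the loess 2 were past 2-fold higher, *Cflar* being added at 1.01, and the p53 targets were at −0.41. The mean of probes put the anti-apoptotic genes at −0.42 and *Cflar* at −0.21. RefSeq probes put *Cflar* at −0.81 and the death receptor genes at −0.70. Causes not given by a setting's construction were not tested. Values within about 1 of the lowest signals above background (−4.65 and −4.78), such as those of *Bcl2a1d*, *Fas* and *Pmaip1*, are limited by background.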
